A study of Danio rerio with 16 samples.

Results

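The effect of a morpholino against slincR was measured in vehicle-treated zebrafish embryos by comparing the RNA of slincR morphants kept in dimethyl sulfoxide (DMSO) with that of control morphants kept in DMSO. All embryos were of the Tropical 5D line and were sampled whole at 48 h post fertilization (hpf), with 20 embryos pooled in each sample. One group carried the slincR morpholino and the other a control morpholino, and both were held in 0.1% DMSO for 1 h starting at about 6 hpf. The comparison used 8 of the 16 samples of the series, 4 biological replicates per group, and 20630 of the 32266 gene identifiers, which are those left by a filter on low counts. The other 8 samples were slincR morphants and control morphants given 1 ng/mL of the dioxin TCDD. They entered the estimate of the spread and served as a second look at the same morpholino contrast.

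slincR is a long intergenic noncoding RNA gene that lies beside sox9b, a gene for a transcription factor of cartilage, and it is known in zebrafish as a transcript induced through the aryl hydrocarbon receptor (AHR), the receptor that dioxins bind. A morpholino is an antisense oligomer injected into the early embryo. It blocks splicing or translation of the RNA it pairs with and does not by itself destroy it, and it can act on other transcripts or raise the p53 and interferon responses, so lists for both responses are described below. Which site of slincR the morpholino covered is not given in the sources used here, and no rescue or other morpholino was among the samples, so effects through slincR and effects through other targets cannot be told apart.

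Libraries held 14977267 to 23142081 counts in genes. Reads in no gene made up 13.7 ± 1.01% in slincR morphants and 14.13 ± 0.947% in control morphants (SD, n = 4; two-sided exact permutation test, p = 0.543, where 0.0286 is the smallest p that 4 against 4 samples allow). The control library of replicate 4 stood apart at −63.38 on the first principal component, where the other 15 libraries lay between −17.68 and 19.4, and it held 1471 genes lying 2-fold or more under their mean in the remaining libraries, a count of 429 to 602 in each of those. Genes whose call depends on that library are named below. Markers of many tissues were found in every DMSO library, among them krt4 of the epidermis, ckma of skeletal muscle, elavl3 of neurons, alas2 of erythroid cells, cdh5 of endothelium and tfa of the liver. The liver marker fabp10a and the erythroid marker hbae1.1 were low, as were the photoreceptor markers opn1sw1 and gnat2. All of these lay between 0.417 and 3.44 CPM (gene counts scaled to a common library size). The photoreceptor marker rho (ENSDARG00000002193) was at 7.87 CPM or less in every DMSO library. The markers hbbe1.1, acta1b, mylpfa, vmhc, mpx and mpeg1.1 matched no identifier and were not examined under these symbols.

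The level of slincR itself is not given here, because the gene table pairs no identifier of the count table with it. The transcript with the largest decrease was ENSDARG00000097714, a long intergenic noncoding RNA in the authors' deposited tables. It was at 0, 0.0494, 0.0543 and 0.0889 CPM in slincR morphants, against 1.17, 0.770, 0.592 and 1.15 CPM in control morphants. Every slincR morphant sample lay below every control sample, with 4 reads in all against 64. The ratio of slincR morphants over control morphants was 0.0554, with an exact 95% Poisson interval of 0.0147 to 0.149 that covers counting error only. Its log2 fold change was −4.0 ± 0.50 (adjusted p = 0.000422), and this call was kept under all 25 alternative settings. In the TCDD-treated embryos it had 2.05, 1.3, 1.11 and 0.976 CPM in slincR morphants, against 7.80, 8.08, 8.64 and 8.06 CPM in control morphants. The groups were apart there too, and both were above their DMSO counterparts. Whether this transcript is the target of the morpholino was not tested.

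No gene matched to the surroundings of slincR passed the threshold. The RefSeq gene table (assembly GRCz12tu) places slincR between sox9b and sstr2b. Of 9 identifiers matched to 7 of its neighbours and tested, 0 passed, where 0.15% of all genes tested did. The smallest adjusted p was 0.614. On the side of sox9b only sox9b itself was matched, and neighbours that matched no identifier were not examined. Several of the 9 identifiers lay near 1 CPM, with an SE of up to 0.45, so that only large changes in them could pass. Of the 9 identifiers, 4 were matched by the neighbour's own symbol and 5 only through a human gene name that paralogs share, so some of the 5 may be paralogs elsewhere in the genome. The level of sox9b was 109, 103, 89.2 and 106 CPM in slincR morphants, against 115, 89.0, 93.3 and 109 CPM in control morphants. The groups overlapped fully, and the log2 fold change was 0.00 ± 0.09 (adjusted p = 0.996).

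Few genes passed the threshold between slincR and control morphants. Of 20630 genes tested, 31 passed a Benjamini-Hochberg (BH) adjusted p of 0.05 in edgeR's quasi-likelihood (QL) test, which is 0.15% of them. In slincR morphants 4 genes were higher (0.0194%) and 27 were lower (0.131%). Without adjustment, 1880 genes (9.11%) had a p under 0.05. Fold changes are given throughout on the log2 scale, slincR morphants over control morphants, with the standard error (SE). Every adjusted p printed for a gene comes out of that edgeR test. Of the 31 genes, 28 had no overlap between the 4 slincR and the 4 control samples, where over all genes tested 2.11% had no overlap with slincR morphants higher and 2.05% with them lower. The genes were called on these same samples, so their separation is not independent evidence. DESeq2 called 97 genes, 33 higher and 64 lower, all 31 among them. The fit to the 8 DMSO samples alone called 17, of which 15 were among the 31.

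**Figure D1:**
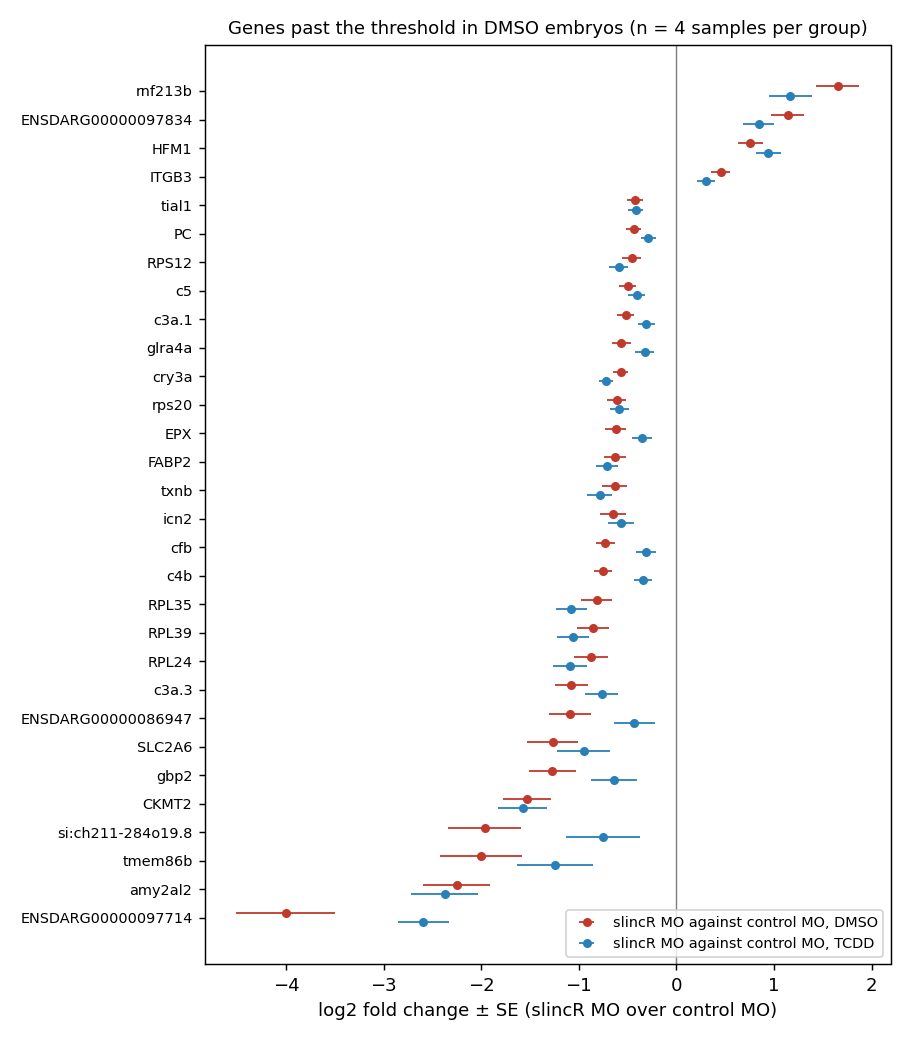
Log2 fold change (x axis, with SE bars) of 30 of the 31 genes past the threshold in DMSO embryos (y axis), in red for DMSO and in blue for TCDD. The 4 genes right of 0 are rnf213b, ENSDARG00000097834, HFM1 and ITGB3, and all 30 genes shown have the same sign in TCDD embryos, where the fold changes come from other libraries.

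The genes c4b, cfb, c3a.1, c3a.3 and c5 of the early complement cascade fell in slincR morphants. Complement is a system of secreted proteins, made mainly by the liver, that tags microbes and lyses them. It works through C3, which is cleaved by enzymes assembled from C4 (classical and lectin pathways) or factor B (alternative pathway), and then through C5, which opens the terminal pathway of C6 to C9. Of 43 tested genes on the list of coagulation and complement genes, 5 were lower and 0 higher (11.6%, against 0.15% of all genes tested), and the list's median log2 fold change was −0.04, against 0.00 for all genes.

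The lowest p of all genes belonged to c4b, a C4 gene. Its levels were 39.1, 42.2, 46.2 and 48.6 CPM in slincR morphants, against 77.5, 72.8, 72.1 and 74.4 CPM in control morphants. The 4 control samples lay within a narrow band and all slincR samples lay clearly under it, with means of 44.0 ± 4.19 CPM in slincR morphants and 74.2 ± 2.43 CPM in control morphants (SD, n = 4). The log2 fold change was −0.75 ± 0.09 (adjusted p = 0.000422), a level 0.594 times that of control morphants. The factor B gene cfb had 41.3, 47.3, 42.1 and 53.8 CPM in slincR morphants, against 66.5, 81.0, 86.1 and 72.3 CPM in control morphants. Again no slincR sample reached the lowest control sample, and the log2 fold change was −0.73 ± 0.10 (adjusted p = 0.000969).

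Zebrafish carry several copies of C3, and 6 were tested. The copy c3a.1 had 414, 435, 489 and 415 CPM in slincR morphants, against 665, 599, 683 and 568 CPM in control morphants. All slincR samples were below all control samples, and the log2 fold change was −0.52 ± 0.09 (adjusted p = 0.00538). The copy c3a.3 had 11.08, 13.9, 11.12 and 16.4 CPM in slincR morphants, against 18.5, 32.6, 25.9 and 34.3 CPM in control morphants, a log2 fold change of −1.08 ± 0.17 (adjusted p = 0.00346) with no overlap, although the controls spread widely. The copy c3a.6 had 17.4, 19.8, 22.8 and 21.9 CPM in slincR morphants, against 41.3, 28.3, 32.5 and 22.9 CPM in control morphants. Its groups did not overlap either, and its log2 fold change, −0.61 ± 0.14, missed the threshold (adjusted p = 0.0907). The log2 fold changes of c3a.2, c3b.1 and c3b.2 were −0.72, −0.14 and −0.04, none of which passed. Reads that align to several copies were not counted for any of them, so the values of each copy are uncertain. Finally c5 had 89.7, 83.8, 95.3 and 98.2 CPM in slincR morphants, against 130.3, 128, 127 and 134 CPM in control morphants, with tight and separate groups and a log2 fold change of −0.50 ± 0.09 (adjusted p = 0.00721).

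The rest of the cascade and the clotting genes did not pass. The 7 terminal genes c6.2, c7a, c7b, c8a, c8b, c8g and c9, whose products form the membrane attack complex, had log2 fold changes of −0.19 to 0.03. The regulator cfh was at −0.07, and the protease genes MASP1, MASP2 and c1s.1 were at 0.34, −0.07 and 1.02. A further C4 gene, c4, was at 0.56. Among 21 coagulation genes, including the fibrinogen genes fga, FGB and FGG at −0.06, −0.17 and 0.14, 10 were negative and the median was 0.02. Of 43 tested liver marker genes 0 passed, the median was 0.03, and their summed level was 20877 to 22230 CPM in slincR morphants and 20718 to 23142 CPM in control morphants. In the edgeR QL test 9 of these 43 (20.9%) had an unadjusted p under 0.05, against 9.11% of all genes tested. In whole-embryo RNA, fewer cells of a type and less RNA per cell cannot be told apart. The calls of c4b, cfb and c3a.3 were kept under all 25 alternatives, that of c3a.1 was lost in the fit to the 8 DMSO samples alone (adjusted p = 0.0531), and that of c5 without slincR replicate 2 (adjusted p = 0.0573).

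**Figure D2:**
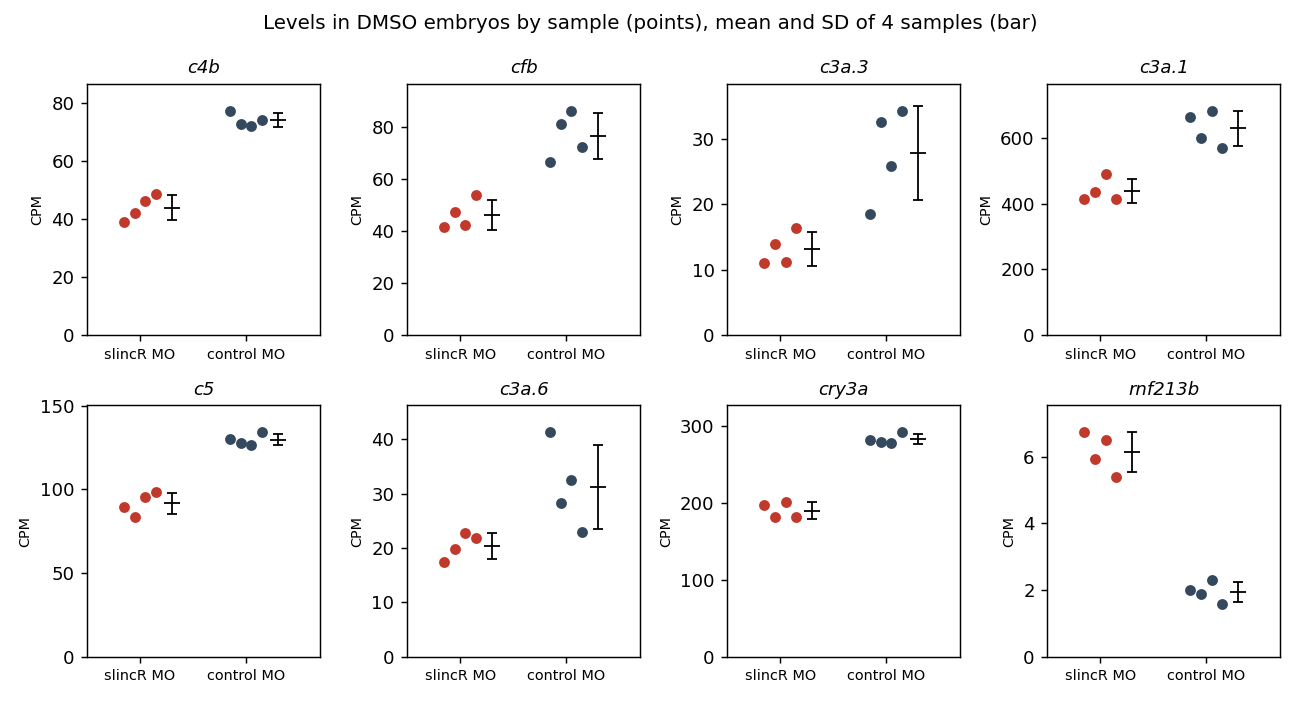
Level (CPM, y axis from 0) of 6 complement genes, cry3a and rnf213b in each DMSO sample (points), slincR morphants left and control morphants right, with the mean and SD of 4 samples as a bar. In every panel the groups do not overlap; rnf213b is higher in slincR morphants, at 5.38 to 6.73 against 1.57 to 2.3 CPM, and the others are lower.

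Some genes for ribosomal proteins of both subunits were lower, and most of the family had negative fold changes. These proteins, with ribosomal RNA, build the large and small subunits of the cytosolic ribosome, and their messages are short and abundant. Of 72 tested genes 6 were lower and 0 higher (8.33%, against 0.15% of all genes tested). In 64 the log2 fold change was negative, and the median was −0.33, against 0.00 for all genes tested, of which 49.9% were negative. The median was −0.29 over 42 genes of the large subunit, with 4 lower, and −0.36 over 30 genes of the small subunit, with 2 lower. In 17 of the 72 genes no slincR sample reached the lowest control sample, which held for 2.05% of all genes tested. The summed level of the 72 genes was 26051 to 31422 CPM in slincR morphants and 29785 to 34331 CPM in control morphants, so the groups overlapped. In the edgeR QL test 42 of the 72 (58.3%) had an unadjusted p under 0.05, against 9.11% of all genes tested.

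The small subunit gene rps20 had 301, 279.9, 276 and 270.0 CPM in slincR morphants, against 327, 442, 435 and 519 CPM in control morphants, with no overlap and a log2 fold change of −0.61 ± 0.10 (adjusted p = 0.0035). Its lowest control sample was replicate 1. The large subunit genes RPL39 and RPL24 had log2 fold changes of −0.86 ± 0.16 (adjusted p = 0.0237) and −0.87 ± 0.17 (adjusted p = 0.034), and in both the control library of replicate 1, at 81.8 and 67.1 CPM, lay among the slincR samples. The other 3 control libraries were at 142 to 165 CPM for RPL39, against 66.0 to 87.9 CPM in slincR morphants. RPL35 was at −0.82 ± 0.16 (adjusted p = 0.034) and RPS12 at −0.46 ± 0.10 (adjusted p = 0.0497), each without overlap. Members of the list that did not pass include RPS26 with 2 identifiers at −0.82 and −0.35, RPL37 at −0.54, RPL3 at −0.17, RPLP0 at −0.13 and RPL13A at 0.18.

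The 6 calls depended on the libraries used. The count of lower genes was 13 without control replicate 1, 2 without control replicate 3, 3 without control replicate 4 (where RPL39, RPL24 and RPS12 were lost, with adjusted p = 0.0775, 0.0729 and 0.186), 2 without slincR replicate 2, 3 or 4, and 1 in the fit to the DMSO samples alone, while the median stayed between −0.38 and −0.28. Adding each library's no-gene share of reads to the model gave 25. Subunits of the mitochondrial respiratory chain had 49 of 63 genes negative, a median of −0.12 and 0 past the threshold. Of the 63, 13 (20.6%) had an unadjusted p under 0.05 in the edgeR QL test, against 9.11% of all genes tested. The most changed by p was COX7A2, of cytochrome c oxidase, at −0.44 ± 0.11 (adjusted p = 0.134). Reads aligned to more than 1 place were not counted, so the values of any ribosomal protein gene with near-identical copies are uncertain.

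**Figure D3:**
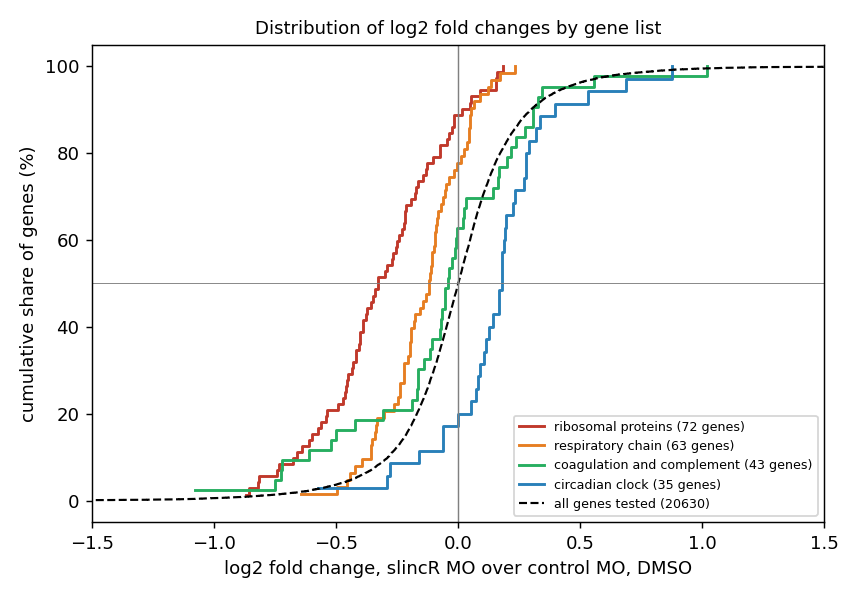
Cumulative share of genes (y axis, percent) against log2 fold change of slincR over control morphants in DMSO (x axis) for 4 gene lists and all 20630 genes tested (dashed). The ribosomal protein curve crosses 50% at −0.33 and the respiratory chain at −0.12, left of all genes at 0.00, and the circadian clock at 0.18, right of it.

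The cryptochrome gene cry3a was lower while most other clock genes were slightly positive. Cryptochromes are relatives of the DNA repair enzymes called photolyases, and several of them repress the clock. The levels of cry3a were 197, 181, 201 and 181 CPM in slincR morphants, against 281, 279, 278 and 291 CPM in control morphants. The spread within each group was small next to the gap between them, with means of 189.8 ± 10.5 CPM in slincR morphants and 282 ± 6.19 CPM in control morphants (SD, n = 4) and a log2 fold change of −0.57 ± 0.07 (adjusted p = 0.000481). The call was kept under all 25 alternatives. Of the 35 tested clock genes, cry3a was the 1 that passed (2.86%, against 0.15% of all genes tested). A positive log2 fold change was found in 29 of the 35, and in 10339 of all 20630 genes tested. An unadjusted p under 0.05 in the edgeR QL test was found in 8 of the 35 (22.9%), against 9.11% of all genes tested. The median of the clock genes was 0.18. It was 0.113 without slincR replicate 3 and 0.109 without slincR replicate 4. The near relative cry3b was at 0.00. CRY2 was at 0.32, PER2 at 0.11, PER3 at 0.14, tefb at 0.29 and nr1d2a at 0.40, none of which passed. The time of day at sampling is not given in the sources used here, and its part in these values was not tested.

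The genes amy2al2, FABP2, CKMT2, PC and SLC2A6 also fell, and the lists of pancreas and gut, skeletal muscle and glycolysis genes held no call beyond FABP2 and CKMT2. The called genes amy2al2, PC and SLC2A6 are on none of these lists, so the counts below leave them out. The gene amy2al2, for an amylase that digests starch, had 0.417, 0.593, 0.814 and 0.578 CPM in slincR morphants, against 3.57, 2.31, 3.16 and 2.54 CPM in control morphants. All slincR samples were under 1 CPM and all controls above 2, with 47 reads against 199, and the log2 fold change was −2.25 ± 0.34 (adjusted p = 0.0028). FABP2 (ENSDARG00000006427), an intestinal fatty acid binding protein gene, had 44.4, 42.6, 37.7 and 39.4 CPM in slincR morphants, against 73.9, 62.5, 50.1 and 66.8 CPM in control morphants. The groups did not overlap, and the log2 fold change was −0.63 ± 0.11 (adjusted p = 0.0154). Its call was lost in the fit to the DMSO samples alone and without control replicate 1, slincR replicate 3 or slincR replicate 4, with adjusted p of up to 0.117. On the list of exocrine pancreas and gut genes FABP2 was the 1 of 15 that passed (6.67%, against 0.15% of all genes tested). The other 14 had a median log2 fold change of 0.01, among them prss1, CPA1 and pdx1 at −0.20, −0.41 and 0.00.

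CKMT2 (ENSDARG00000069615), a gene for the mitochondrial creatine kinase of muscle, had 1.61, 2.67, 2.55 and 1.78 CPM in slincR morphants, against 4.80, 7.34, 4.93 and 7.87 CPM in control morphants. The highest slincR sample was well below the lowest control, and the log2 fold change was −1.53 ± 0.24 (adjusted p = 0.0035). It was the 1 of 57 skeletal muscle genes that passed (1.75%, against 0.15% of all genes tested). The list had a median of −0.03 and a summed level of 66987 to 71606 CPM in slincR morphants and 63911 to 72149 CPM in control morphants. PC (ENSDARG00000051939), for pyruvate carboxylase, an enzyme that feeds the citric acid cycle and glucose synthesis, had 73.2, 84.0, 83.5 and 69.6 CPM in slincR morphants, against 107, 112, 101 and 100.4 CPM in control morphants. The groups were separate, and the log2 fold change was −0.44 ± 0.08 (adjusted p = 0.0165). SLC2A6, of the glucose transporter family, was at −1.27 ± 0.26 (adjusted p = 0.049), resting on levels of 1.43 to 2.12 CPM in slincR morphants and 3.22 to 5.92 CPM in control morphants. Of 42 genes of hypoxia and glycolysis 0 passed, with a median of 0.00.

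The 4 genes that rose were led by rnf213b, for a large ubiquitin ligase whose human relative RNF213 is known for its link to vessel disease. It had 6.73, 5.93, 6.51 and 5.38 CPM in slincR morphants, against 2.01, 1.90, 2.3 and 1.57 CPM in control morphants. Every slincR sample was more than 2-fold above every control sample, with means of 6.14 ± 0.608 CPM in slincR morphants and 1.95 ± 0.301 CPM in control morphants (SD, n = 4), a log2 fold change of 1.65 ± 0.22 (adjusted p = 0.000557) and a level 3.15 times that of control morphants. ENSDARG00000097834, to which the gene tables give no name, had 6.32, 9.74, 9.28 and 9.29 CPM in slincR morphants, against 4.19, 3.85, 3.55 and 4.12 CPM in control morphants, with a log2 fold change of 1.14 ± 0.17 (adjusted p = 0.00173). Its slincR replicate 1 lay lowest of its group and still above all controls. HFM1, a gene for a DNA helicase of meiosis in mammals, had 14.9, 15.3, 15.14 and 17.5 CPM in slincR morphants, against 10.2, 7.96, 9.41 and 9.74 CPM in control morphants. The groups were separate, and the log2 fold change was 0.76 ± 0.13 (adjusted p = 0.00538). These 3 calls were kept under all 25 alternatives.

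ITGB3 (ENSDARG00000056767), for an integrin subunit of platelets and vessels, had 71.4, 67.9, 76.0 and 62.0 CPM in slincR morphants, against 46.9, 57.9, 54.5 and 42.9 CPM in control morphants. Its groups did not overlap, and its log2 fold change was 0.45 ± 0.09 (adjusted p = 0.049), but the call was lost under 15 of 25 alternatives, among them without control replicate 4 (log2 fold change 0.38, adjusted p = 0.15). Of 34 endothelial genes 0 passed, with a median of 0.03.

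Guanylate-binding proteins are GTPases induced by interferon in mammals. The gene gbp2 was lower, while its relative gbp1 did not pass. The levels of gbp2 were 1.49, 2.37, 1.41 and 2.89 CPM in slincR morphants, against 6.03, 3.70, 5.00 and 5.27 CPM in control morphants, without overlap, and its log2 fold change was −1.27 ± 0.24 (adjusted p = 0.0202). gbp1 had 9.83, 7.51, 5.70 and 5.87 CPM in slincR morphants, against 3.24, 3.64, 2.7 and 3.45 CPM in control morphants. Its slincR samples were all above its controls, with a difference of 1.14 ± 0.26 on the log2 scale that missed the threshold (adjusted p = 0.0954). Reads shared between such relatives were not counted, and the call of gbp2 was lost under 6 alternatives, by a narrow margin without control replicate 4 (adjusted p = 0.0503).

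No gene on the lists of the p53 and interferon responses passed. The interferon list holds gbp1 but not gbp2, which did pass. Of 27 tested p53 response genes 0 passed, 3 had an unadjusted p under 0.05 in the edgeR QL test, 10 were positive, and the median log2 fold change was −0.08, which became −0.0252 without control replicate 4 and −0.0277 without slincR replicate 1. Of that response, cdkn1a, a cell cycle inhibitor gene, was at −0.14, and BAX, CCNG1 and PHLDA3 were at −0.07, −0.10 and −0.12. mdm2, a ubiquitin ligase gene that is induced in the p53 response, lay just outside the threshold. Its levels were 37.3, 37.9, 35.5 and 37.0 CPM in slincR morphants, against 65.2, 44.8, 56.5 and 51.3 CPM in control morphants. The slincR samples were lower than every control, with a log2 fold change of −0.56 ± 0.12 (adjusted p = 0.05), and it passed under 8 of the 25 alternatives. Of 31 identifiers matched to interferon and innate genes, only 16 were left by the filter on low counts and tested. Of these 16 genes 0 passed the threshold, and the median was 0.02. In the edgeR QL test 5 of the 16 (31.25%) had an unadjusted p under 0.05, where 9.11% of all genes tested did. The interferon-stimulated gene isg15 was at 0.09, mxc at 0.00, tlr3 at 0.60 and IRF7 at −0.35.

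EPX, a gene with the name of a human granulocyte peroxidase, was lower. It had 21.8, 22.7, 25.3 and 26.3 CPM in slincR morphants, against 40.6, 34.4, 37.4 and 35.9 CPM in control morphants. The groups were well apart, and the log2 fold change was −0.62 ± 0.11 (adjusted p = 0.00644), kept under all 25 alternatives. Of 34 tested marker genes of neutrophils and macrophages 25 were negative, 0 passed, and the median was −0.28. In the edgeR QL test 8 of these 34 (23.5%) had an unadjusted p under 0.05, against 9.11% of all genes tested. The symbol mpx, of the peroxidase that marks zebrafish neutrophils, matched no identifier, so EPX is not counted in that list, and whether both names stand for the same gene cannot be told from the tables. The lysozyme gene lyz was at −0.50, the oxidase subunit gene NCF4 at −1.25 and the scavenger receptor gene marco at −0.64, while the macrophage receptor gene csf1ra was at 0.15. The summed level of the list was 644 to 696 CPM in slincR morphants and 656 to 839 CPM in control morphants, so the groups overlapped. The median was −0.15 without control replicate 1 and −0.23 without control replicate 4. The part of these cells in the level of EPX was not tested.

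Other lower genes differ in the roles they are known for. glra4a, for a glycine receptor subunit of inhibitory synapses, had 28.4, 34.2, 31.7 and 34.5 CPM in slincR morphants, against 42.2, 47.9, 48.2 and 52.0 CPM in control morphants. The groups were separate, with a log2 fold change of −0.56 ± 0.10 (adjusted p = 0.00823), and of 59 neuron genes 0 passed, with a median of −0.04. tial1, for an RNA-binding protein of stress granules, had 195, 208, 185 and 213 CPM in slincR morphants, against 267, 259, 260.3 and 287 CPM in control morphants and a log2 fold change of −0.42 ± 0.08 (adjusted p = 0.0272). txnb, a thioredoxin gene of redox control, had 18.8, 11.5, 14.9 and 14.5 CPM in slincR morphants, against 25.1, 19.9, 25.2 and 22.1 CPM in control morphants and a log2 fold change of −0.63 ± 0.13 (adjusted p = 0.0384). In both genes the highest slincR sample was below the lowest control sample. icn2, an ictacalcin gene of fish skin, was at −0.65 ± 0.13 (adjusted p = 0.0481) with overlapping groups. It was the 1 of 55 keratinocyte genes that passed (1.82%, against 0.15% of all genes tested). tmem86b, for an enzyme of ether lipid breakdown in mammals, had 0.596, 0.692, 0.651 and 1.2 CPM in slincR morphants, against 5.97, 1.23, 4.01 and 1.69 CPM in control morphants. Its controls ranged widely, the lowest of them lay close to the highest slincR sample, and the log2 fold change was −2.0 ± 0.42 (adjusted p = 0.049).

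si:ch211-284o19.8 and ENSDARG00000086947, whose roles are not known from the tables, were at −1.97 ± 0.37 (adjusted p = 0.0202) and −1.09 ± 0.21 (adjusted p = 0.0276). Their levels were 0.357 to 0.741 CPM in slincR morphants against 1.69 to 2.85 CPM in control morphants, and 4.34 to 6.92 CPM in slincR morphants against 9.99 to 14.7 CPM in control morphants. Of the 31 calls, 12 were kept under all 25 alternatives, and 9 were lost under 8 or more, namely RPS12, icn2, tmem86b, SLC2A6, ITGB3, txnb, RPL24, tial1 and RPL35. Without control replicate 4 the calls of 21 genes were kept. The 10 lost were si:ch211-284o19.8, gbp2, RPL39, tial1, RPL24, txnb, icn2, SLC2A6, ITGB3 and RPS12. No gene of the 31 changed sign under any of the 25.

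Genes that the study had singled out were looked at by name. They include sox9b, which lies beside slincR. How far the study chose the genes on these samples was not examined, so their direction is not taken as independent evidence. Of these 7 genes, FABP2 passed (14.3%, against 0.15% of all genes tested) and the other 6 did not. NOTCH3 (ENSDARG00000052139), a receptor gene of the Notch pathway, had 343, 313, 317 and 319.5 CPM in slincR morphants, against 231, 275, 255 and 135 CPM in control morphants. All slincR samples were above all controls, and control replicate 4 was far below the other controls. The log2 fold change was 0.53 ± 0.13 (adjusted p = 0.151), and it was 0.35 without that library (adjusted p = 0.126). sfrp2, for a secreted Wnt antagonist, had 68.2, 98.2, 92.8 and 112 CPM in slincR morphants, against 68.8, 81.6, 58.3 and 73.0 CPM in control morphants, with overlap and a log2 fold change of 0.40 ± 0.12 (adjusted p = 0.292). FGFR3, a fibroblast growth factor receptor gene, and ADAMTS3, for a procollagen protease, were at 0.40 ± 0.12 (adjusted p = 0.309) and 0.36 ± 0.11 (adjusted p = 0.329), each with slincR samples above all controls. Without control replicate 4 the value of FGFR3 was 0.25 (adjusted p = 0.536). SOX9 (ENSDARG00000003293), the other sox9 gene, was at 0.07 ± 0.16 (adjusted p = 0.923) with overlap. Around them, 0 of 31 cartilage genes, 0 of 29 Notch genes, 0 of 39 Wnt genes and 0 of 25 fibroblast growth factor genes passed, with medians of −0.02, 0.05, 0.02 and 0.00. In the edgeR QL test 7 of the 29 Notch genes (24.1%) had an unadjusted p under 0.05, against 9.11% of all genes tested. The shares were 9.68% for cartilage, 10.3% for Wnt and 4.0% for fibroblast growth factor genes.

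**Figure D4:**
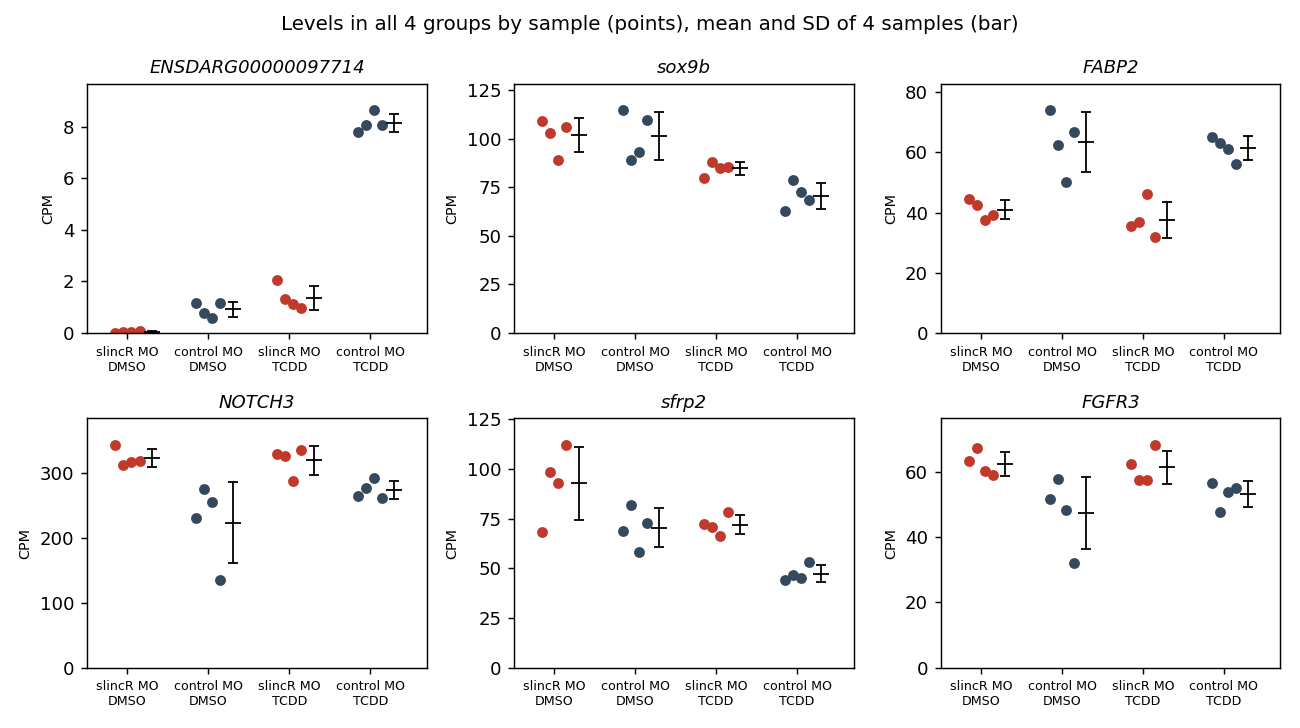
Level (CPM, y axis from 0) of 6 genes in each sample of the 4 groups (points, slincR morphants in red and control morphants in dark blue) with the mean and SD of 4 samples as a bar. In DMSO, the lincRNA ENSDARG00000097714 is near 0 in slincR morphants, sox9b overlaps, FABP2 is lower without overlap, and NOTCH3 is higher with control replicate 4 at 135 CPM.

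Among the 41 gene lists, 7 held a gene past the threshold and 34 held none. Over the 1126 genes of those 34 lists, 145 (12.88%) had an unadjusted p under 0.05 in the edgeR QL test, against 9.11% of all genes tested. The medians of those 34 ran from −0.28 for neutrophil and macrophage genes to 0.08 for the pronephros. Of the AHR battery, the detoxification genes that dioxin induces, 0 of 20 passed and the median was −0.09, and of the Nrf2 oxidative stress genes 0 of 22, also with a median of −0.09. Photoreceptor genes had 35 of 51 negative and a median of −0.16, cholesterol synthesis genes 20 of 28 negative and −0.11, and notochord and hatching gland genes 17 of 21 negative and −0.09. Several of these medians moved by over 1.5 times when 1 library was left out. Without control replicate 1, the median was −0.0418 for cholesterol synthesis and −0.041 for notochord and hatching gland genes. For photoreceptor genes it was −0.105 without slincR replicate 1 and −0.268 without slincR replicate 3. For the AHR battery it was −0.0509 without slincR replicate 2 and −0.0587 without control replicate 3, and for the pronephros 0.0524 without slincR replicate 3. Of 28 erythroid genes 0 passed, with hbbe3, a globin gene, at −0.65 ± 0.19 (adjusted p = 0.258). Of 49 replication and mitosis genes 0 passed, with a median of 0.01. The smallest p in the liver list was that of hpxa, for the heme-binding protein hemopexin, which had 7.75, 4.6, 6.95 and 7.07 CPM in slincR morphants, against 1.84, 2.1, 3.42 and 3.69 CPM in control morphants. Its samples did not overlap, with slincR morphants higher, and its log2 fold change, 1.26 ± 0.30, missed the threshold (adjusted p = 0.105). Bone, collagen, hedgehog, retinoid, lens, cardiac, pigment and hox lists had medians between −0.06 and 0.05 and 0 genes past the threshold.

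**Figure D5:**
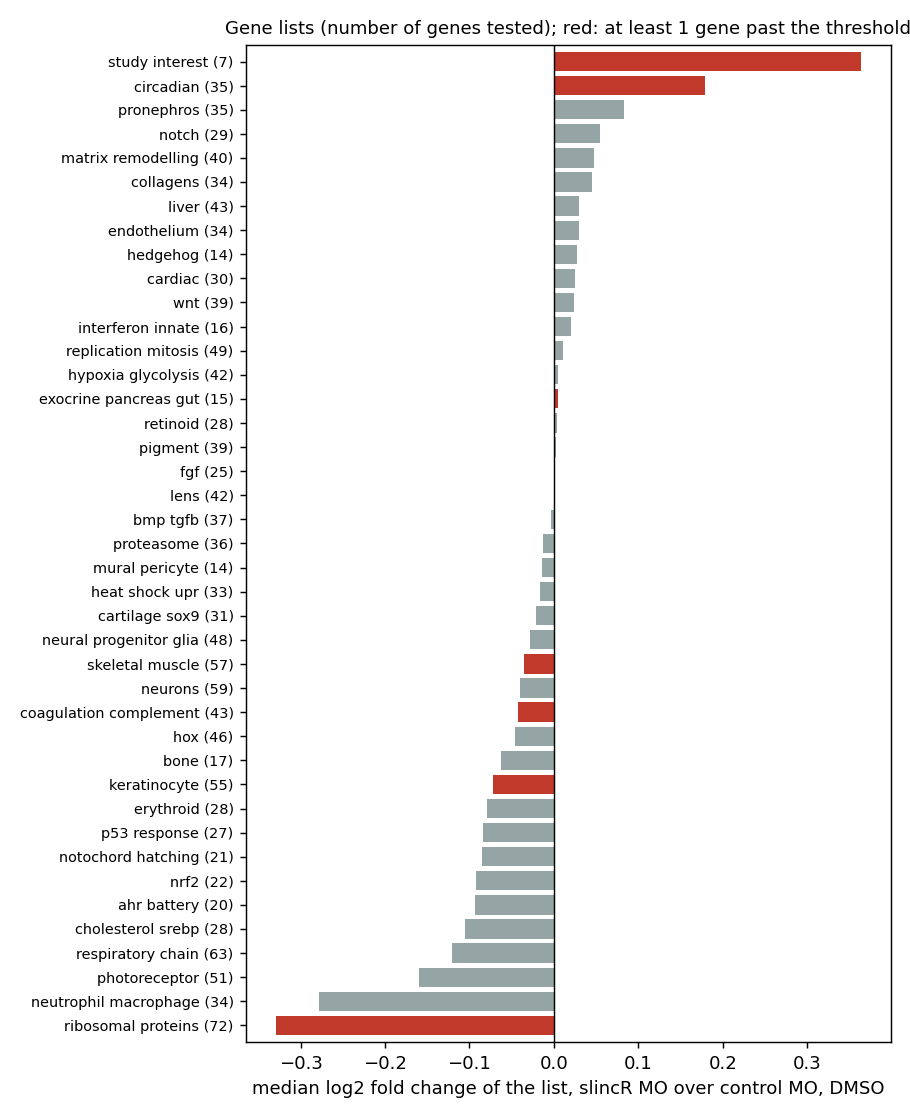
Median log2 fold change of slincR over control morphants in DMSO (x axis) for each of 41 gene lists (y axis, number of genes tested in brackets), in red where at least 1 gene passed the threshold. Ribosomal proteins are lowest at −0.33 and neutrophil and macrophage genes next at −0.28; the circadian clock is at 0.18, and the list of the study's genes is highest at 0.36.

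The fold changes of the same morpholino contrast in TCDD-treated embryos come from the other 8 libraries, with the spread estimated over all 16. There 92 genes passed (0.446% of those tested), 17 higher (0.0824%) and 75 lower (0.364%). All 31 genes called in DMSO had the same sign in TCDD, where 63.8% of all genes tested did, and 28 of them had no overlap in that direction. Over all genes tested, the TCDD samples had no overlap in 3.89% with slincR morphants higher and in 3.77% with them lower. In 20 of the 31 genes the absolute log2 fold change was smaller in TCDD than in DMSO, where the genes had been called. Both contrasts called 18 genes, which is 58.1% of the DMSO calls and 19.6% of the TCDD calls. They include cry3a at −0.72 ± 0.07 (adjusted p = 1.11e-05) in TCDD, amy2al2 at −2.37 ± 0.35 (adjusted p = 0.00194), CKMT2 at −1.58 ± 0.25 (adjusted p = 0.00316), HFM1 at 0.94 ± 0.13 (adjusted p = 0.000708) and rnf213b at 1.17 ± 0.22 (adjusted p = 0.0129). Ribosomal proteins had 27 of 72 genes lower in TCDD and a median of −0.51. The respiratory chain had 5 of 63 genes lower there and a median of −0.21.

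Of the complement genes called in DMSO, 2 also passed in TCDD. c4b had 52.3, 45.1, 48.7 and 50.1 CPM in slincR morphants, against 58.7, 65.1, 54.1 and 71.1 CPM in control morphants in TCDD, and its log2 fold change, −0.34 ± 0.09, missed the threshold (adjusted p = 0.117). The morpholino effects in TCDD and in DMSO differed by 0.41 ± 0.13 for c4b and by 0.41 ± 0.14 for cfb, with unadjusted p = 0.00503 and 0.00821 in the edgeR QL test, and with an adjusted p of 1 for both. The 2 that passed in TCDD were c3a.3 and c5, at −0.77 ± 0.17 (adjusted p = 0.0332) and −0.41 ± 0.09 (adjusted p = 0.0231). c3a.6, not called in DMSO, passed in TCDD at −0.69 ± 0.14 (adjusted p = 0.0198). cfb and c3a.1 did not, at −0.31 ± 0.10 (adjusted p = 0.222) and −0.31 ± 0.09 (adjusted p = 0.13). Over all genes, 0 passed the edgeR QL test of this difference, with 617 (2.99%) at an unadjusted p under 0.05. DESeq2 and limma-voom also called 0 genes, with 671 and 662 at an unadjusted p under 0.05. A dependence of the morpholino's effect on TCDD was therefore not detected for any gene, which does not show that the effects were alike.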

How the data were processed

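Poly-A selected RNA of 16 pools of whole embryos was sequenced as paired 150 bp reads, per the labels' protocols. The deposited table holds raw counts per Ensembl gene. The submitters' processing notes name FastQC, TopHat, SAMtools, HTSeq, edgeR and the build GRCz10, and no source used here gives their settings, the strand handling or the annotation release, so antisense and overlapping genes cannot be told apart. Entries for reads in no gene, ambiguous reads and reads aligned to more than 1 place (24.44% to 29.35% of entries per library) were left out.

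Genes were kept by filterByExpr (minimum count 10), normalised by TMM and fitted in edgeR 4.0.16 (R 4.3.3) with a mean per group over all 16 samples, leaving 12 residual degrees of freedom (common biological coefficient of variation, 14%). Each SE was taken as |log2 fold change|/√F. Levels are CPM by TMM library size, and the depth above sets their precision. Calls were two-sided at a BH adjusted p of 0.05. The p-values measure only the spread between these samples. Alternatives used RLE factors, DESeq2 1.42.0, limma-voom 3.58.1, other filters, the 8 DMSO samples, a replicate block, covariates and leaving out each library. The model was tested on simulated data.

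The members, the 41 lists and the rules were chosen with earlier results of these data known. Of 1541 list symbols, 1347 matched an identifier, 230 of them only through a human gene name that paralogs share, and printed symbols are those of the gene table (26433 of 32266 identifiers named) or of the authors' deposited tables. Named genes are those past the threshold, genes always named (sox9b, SOX9, the study's genes and ENSDARG00000097714) and the 2 members of smallest p in lists with no call. Other list members, given with their log2 fold change alone, and c3a.6, were chosen after their values were seen. Some genes that these rules choose are counted but not reported here by name. The authors' tables of TCDD responses gave symbols only.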

Additional observations from a re-analysis of the deposited data

Results flagged for a closer look

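In each of the DMSO groups, the highest or lowest of the 4 samples was compared with the others for every named gene and library share. Of 204 groups, 15 held a sample whose gap to its nearest neighbour exceeded Dixon's 95% critical value for the gap over the range, and chance alone flags about 5% of groups.

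In slincR replicate 4, HFM1 was highest at 17.5 CPM (others 14.9 to 15.3), tmem86b highest at 1.2 CPM (others 0.596 to 0.692), ELAVL4 highest at 644 CPM (others 576 to 584) and SOX9 lowest at 31.7 CPM (others 44.4 to 46.4). The share of reads in no gene was also highest there, at 15.2% (others 13.08% to 13.39%). In slincR replicate 1, ENSDARG00000097834 was lowest at 6.32 CPM (others 9.28 to 9.74). In slincR replicate 2, sagb was highest at 4.89 CPM (others 2.74 to 3.04) and UCMA lowest at 43.8 CPM (others 50.6 to 50.7). In slincR replicate 3, ALDOA was highest at 398 CPM (others 337 to 346) and ALPL highest at 29.6 CPM (others 21.6 to 23.0).

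Among control morphants, SLC8A1 was lowest in replicate 4 at 32.2 CPM (others 44.9 to 45.3). In replicate 2, ADAMTS3 was highest at 21.6 CPM (others 17.2 to 17.6) and hoxc3a lowest at 58.9 CPM (others 82.3 to 87.1). In replicate 3, apoeb was lowest at 809.8 CPM (others 1060.1 to 1088), and in replicate 1 GCLM was highest at 13 CPM (others 9.56 to 9.85). Of these genes, HFM1, ENSDARG00000097834 and tmem86b passed the threshold in DMSO.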

How the results depend on the processing

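Against 31 calls in DMSO (4 higher, 27 lower), DESeq2 gave 97 (33 and 64), no filter on low counts 54 (11 and 43), the no-gene share of each library as a covariate 99 (20 and 79), and the 8 DMSO samples alone 17 (3 and 14). RLE factors gave 27, limma-voom 28, a filter of 1 CPM in 4 samples 33, and the share of reads aligned to more than 1 place as a covariate, chosen after seeing the data, 26. Leaving out 1 library gave 17 (slincR replicate 3) to 52 (control replicate 2) calls, with 3 to 15 higher and 14 to 37 lower. It gave 20 without slincR replicate 2, and 26 without control replicate 4, of which 21 were shared. In TCDD, against 92 calls, DESeq2 gave 244, the no-gene covariate 286, and leaving out 1 library 22 to 115. The difference between both contrasts gave 0 calls under every setting that can estimate it, with 551 to 1053 genes at an unadjusted p under 0.05. The causes were not tested.

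The replicate numbers are not shown to pair the samples, since the deviations of same-numbered slincR and control samples had a Pearson's r across genes of −0.05, 0.05, 0.01 and 0.13. With a replicate block the DMSO contrast had 30 calls (4 higher and 26 lower), 27 of them shared, the TCDD contrast 109 and the difference 0. Genes at low levels rest on few reads, such as 47 against 199 for amy2al2, so smaller changes in them were not detectable at this depth.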
